A study of Mus musculus with 4 samples.

Results

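The amino acid response was followed through 31 mouse genes, chosen by symbol as targets or partners of the transcription factor ATF4, serine synthesis enzymes and cytosolic tRNA synthetases. They are 31 of the 31040 genes counted. The list held 32 symbols, of which Mars1 was absent because the methionyl-tRNA synthetase gene is present under its older name, Mars. The genes were measured by droplet single-cell RNA sequencing of organoids grown from intestinal crypts of 2 mice aged 10 weeks. Every library carries the alleles Cbl flox/flox and Cblb flox/flox and the tamoxifen-inducible Cre R26CreERT2. Control 1 and control 2 received no tamoxifen. Knockout 1 and knockout 2 received 4-hydroxytamoxifen at 400 nM for 3 days, which deletes Cbl and Cblb, the genes of a pair of ubiquitin ligases that mark active receptor tyrosine kinases for degradation. Library numbers match the mouse, so each knockout has a control from its own animal, and the drug and the Cre activity cannot be told apart from the deletion. The question was how these genes differ between knockout and control in dividing and in other cells.

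When amino acids run short, uncharged tRNAs activate the kinase GCN2, and endoplasmic reticulum stress activates PERK. Both phosphorylate the initiation factor eIF2, which lowers general protein synthesis and raises translation of the Atf4 mRNA, so ATF4 activity can change without a change in Atf4 transcript. ATF4 and its partners bind composite C/EBP-ATF elements and switch on amino acid synthesis, amino acid import, tRNA charging and feedback regulators. In the intestinal crypt, dividing cells take up and make amino acids for rapid growth, while mature enterocytes absorb them from the lumen.

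The promoter sequences below show where the core of that element occurs beside the genes whose levels are described. The core TGATGNAA, or its reverse complement TTNCATCA, was searched on both strands in windows of 300 bases around each RefSeq start site (build GRCm38.p6, 250 bases before and 50 after). It was found in 11 of the 26 members with a window (42.3%) and in 1219 of 27025 genes overall (4.51%). Members were listed partly because they are known ATF4 targets, so the larger share is a description of the choice. A form with 1 more base, TGATGNAAT, was found in 4 members and in 1.08% of all genes. The table held no window for Slc7a5, Nars, Wars, Mars or Lars. Each sequence reads 5′ to 3′ along its gene, with the match in capitals, for the 6 matching members that fell in dividing cells and for Slc7a11, which has both orientations.
Trib3, chr2:152344029-152344056, minus strand: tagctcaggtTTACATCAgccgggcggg
Chac1, chr2:119351019-119351086, plus strand: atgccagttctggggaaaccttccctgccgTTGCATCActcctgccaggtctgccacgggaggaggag
Nupr1, chr7:126625563-126625590, minus strand: aagggccagaTTGCATCAgacagggctt
Vldlr, chr19:27216810-27216837, plus strand: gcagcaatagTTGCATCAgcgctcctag
Asns, chr6:7693215-7693242, minus strand: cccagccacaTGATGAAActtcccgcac
Pycr1, chr11:120643814-120643881, minus strand: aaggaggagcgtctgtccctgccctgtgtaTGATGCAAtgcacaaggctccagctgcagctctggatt
Slc7a11, chr3:50443642-50443709, minus strand: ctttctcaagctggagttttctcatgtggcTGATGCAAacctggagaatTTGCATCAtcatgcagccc
The match lies before a RefSeq start site in each of these genes except Trib3, where it begins at base 15 after it, and for Vldlr the site is the second of 2 listed. Of the 18 members that fell in dividing cells, 16 had a window and 6 of them a match. Of the members that did not fall, 10 had a window and 5 a match, in Slc7a11, Aars, Gars, Tars and Yars.

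The deleted genes were lower in the knockouts: over all cells Cbl was at 17.0 and 19.9 CPM (a gene's UMI count scaled to the same total in every library) in controls 1 and 2 versus 12.2 and 10.5 CPM in knockouts 1 and 2. Cblb was at 8.60 and 3.92 CPM versus 3.35 and 0.463 CPM; reads outside the deleted exons are counted too, so these values do not measure the deletion in full. After filtering, 5359 cells were kept, from 682 in control 2 to 1902 in knockout 2, with 21917272 to 34529926 UMIs (distinct RNA molecules) per library. Dividing cells are the 1343 cells of 3 clusters named from mitosis markers, with the members left out of the clustering. They were 256 and 113 cells in controls 1 and 2 and 450 and 524 cells in knockouts 1 and 2. Their median depth was 40060 and 56536 UMIs per cell in the controls versus 28436 and 26962 in the knockouts. The other cells include a stem-like cluster led by Olfm4 and DNA replication genes, so they are not all out of the cell cycle. They also hold unnamed clusters 13 and 15, of 193 and 93 cells, which scored highest for the mitosis markers. Those clusters were shallow, at 0.313 and 0.138 times the median depth of their libraries. Markers of 5 cell types that epithelial organoids should lack were low: over all cells, immune genes summed to at most 9.54 CPM, and all erythroid genes were at 0. A control and a knockout library shared 1 cell barcode in each of 2 library pairs, and the remaining pairs shared none.

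In dividing cells, 18 of the 31 members fell and 2 rose in the knockouts. The genes that fell covered every role: feedback regulators Trib3 and Chac1, the stress factors Atf5, Nupr1 and Ddit3, asparagine and proline synthesis, 2 of 3 serine synthesis genes, 2 of 4 transporters and 2 of 10 tRNA synthetases. Atf4 itself was at 194 and 221 CPM in the controls versus 212 and 189 CPM in the knockouts. Sesn2 and Wars rose. The shares of all 11319 genes called in the same fit were 4.64% lower and 3.61% higher. The members' median log2 fold change was -0.34 against -0.0021 over all genes. Because the members were chosen with earlier results of these data known, their larger share is a description and no independent test. The count of called members rests on how dividing cells were defined. A much broader set took cells with at least 0.0234% of their UMIs in mitosis markers. It held 3180 of 5359 cells, among them 1342 of the 1343 taken by cluster. With this set and the same test, Trib3 fell (-1.51 ± 0.26, adjusted p = 0.0479), Sesn2 rose, and the other 18 called members did not pass. There 1.15% of 12268 genes were called lower and 0.677% higher, and the members' median was -0.23.

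Here "rose" and "fell" mean an adjusted p under 0.05 in edgeR's quasi-likelihood test on summed counts with the mouse as a block. Most of the calls depend on edgeR's test together with that block. Without the block, edgeR called 0 members and 0 of 11319 genes in dividing cells. In that fit 15 members and 874 genes had an unadjusted p under 0.05. That fit also recovered 0 of 100 genes simulated with a 2-fold change, where the block fit recovered 87. The simulated libraries of a mouse shared the same means apart from the planted changes, which favours the block fit by design. The simulation therefore cannot show which fit suits the real data. Trib3 and Nupr1 were called lower by other fits with and without the block. DESeq2 with the block called those 2 members, in a table where 0.607% of genes were called lower and 0.467% higher. DESeq2 without it called 3, the same pair and Atf5, all lower, with 0.215% of genes lower and 0.124% higher. Without the block and without the filter on low counts, edgeR called 7 members lower (Asns, Atf5, Chac1, Mthfd2, Nupr1, Psph and Trib3) and Sesn2 higher, with 0.752% of 16618 genes lower and 0.548% higher.

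The decline was unequal between the mice. The members' median log2 ratio of knockout to control was -0.09 in mouse 1 and -0.53 in mouse 2, while the medians over all genes were 0.05 and 0.05. In 23 of 31 members, control 2 was the highest of the 4 libraries, against 18.6% of all genes. Even so, 20 of 31 members were lower in both mice, where 25.0% of all genes were. Both controls lay above both knockouts for 18 members, against 14.3% of all genes. In the fit without the block, the members' median log2 fold change was -0.13 without control 2 and -0.60 without control 1. It was -0.33 without knockout 1 and -0.39 without knockout 2.

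Paneth markers and the depth per cell moved with the groups in dividing cells, and their part in the result was not tested. Paneth markers summed to 740 and 1305 CPM in the dividing cells of controls 1 and 2 and to 495 and 499 CPM in those of the knockouts, with 9 or 10 of 10 markers detected. Goblet markers did not separate the groups, at 248 and 610 CPM in the controls versus 270 and 387 CPM in the knockouts. The dividing cells also came from the 3 clusters in different proportions. Cluster 7 gave 10 and 42 cells in controls 1 and 2 versus 31 and 238 in knockouts 1 and 2, so it was mostly mouse 2. The members' median log2 fold change was -0.26 within cluster 1, -0.16 within cluster 4 and -0.68 within cluster 7. Among the 10 genes that most marked cluster 7 were 2 members, Slc7a11 and Psph. In cells of 20000 to 60000 UMIs the members' median was -0.19. That window did not match depth: its median was 39831 and 50196.5 UMIs in controls 1 and 2 versus 29222 and 28439 in knockouts 1 and 2. It kept 64 of the 113 dividing cells of control 2.

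**Figure D1:**
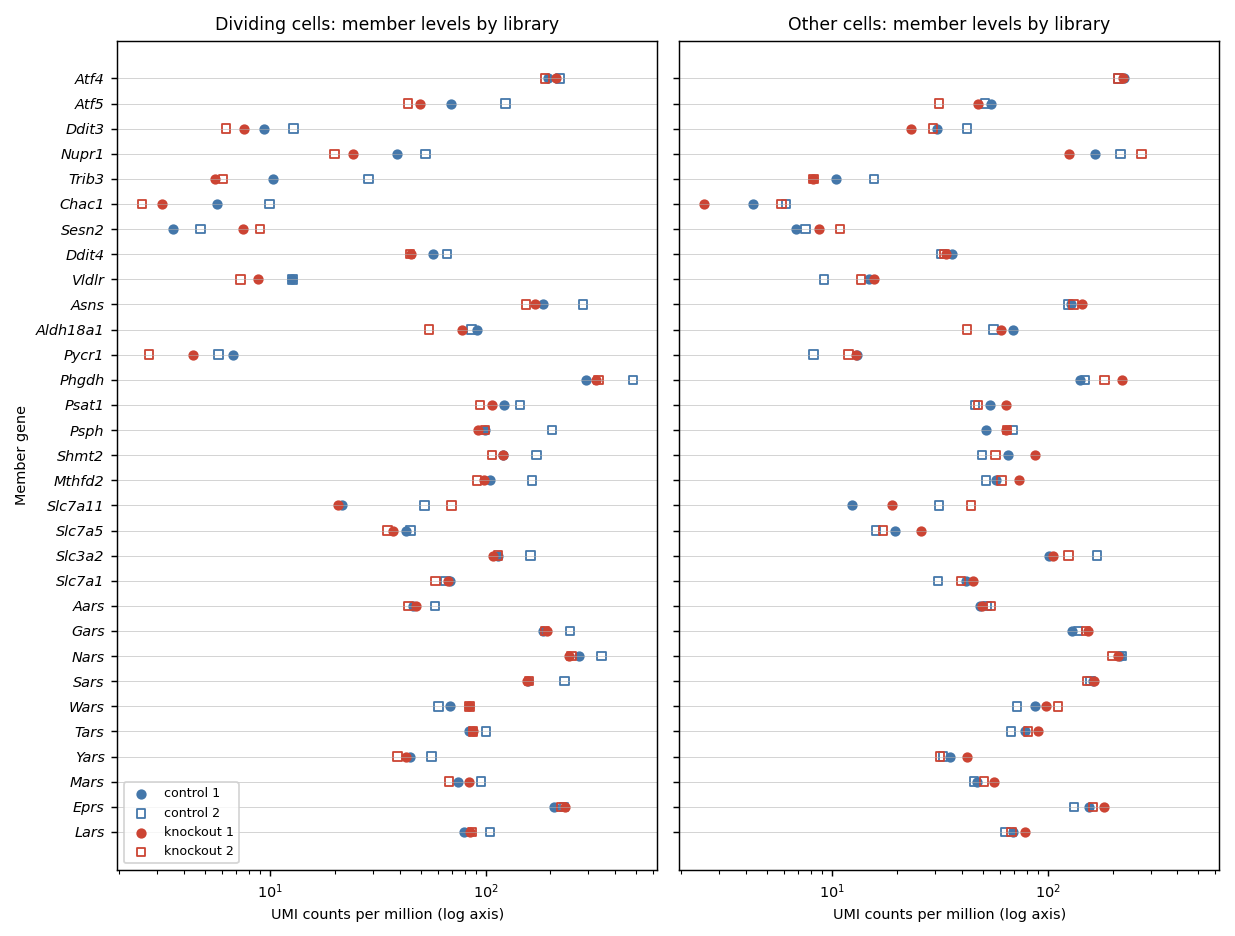
Level of each member in each library, in CPM on a log axis, for dividing cells (left) and other cells (right). Filled circles are mouse 1, open squares mouse 2, blue controls and red knockouts. In dividing cells the open blue squares of control 2 lie rightmost for 23 of 31 members, and in other cells for 6.

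Among the transcription factors, Atf5 (chr7:44812256-44816658), which is translated like Atf4 when eIF2 is phosphorylated, was at 69.1 and 124 CPM in control dividing cells and at 49.5 and 43.6 CPM in the knockouts. Both knockouts lay below both controls, for a log2 fold change of -1.04 ± 0.14 (SE; adjusted p = 1.28e-05). Nupr1, a small stress-induced chromatin protein, was at 38.7 and 52.7 CPM in the controls against 24.4 and 19.97 CPM. It fell in both mice, by log2 ratios of -0.66 and -1.40, and the fitted change was -1.07 ± 0.13 (adjusted p = 4.31e-06). Ddit3 (CHOP, chr10:127290774-127296288), the factor linked to death under unresolved stress, was lower in level at 9.36 and 12.9 CPM in controls versus 7.57 and 6.27 CPM in knockouts. Its change was -0.70 ± 0.20 (adjusted p = 0.0246). Atf4 (chr15:80255184-80257541) did not pass, at -0.09 ± 0.08 (adjusted p = 0.558), and its groups overlapped.

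Trib3 and Chac1 had the lowest fold changes of all members. Trib3 (chr2:152337422-152344032), a pseudokinase that binds ATF4 and dampens it, was at 10.4 and 28.7 CPM in the controls versus 5.56 and 6.06 CPM in the knockouts. Its change was -1.71 ± 0.21 (adjusted p = 6.08e-06). It was lower in both mice, and control 2 alone stood far above the other libraries. Chac1, which degrades glutathione, rested on 61 and 69 UMIs in the controls versus 41 and 37 in the knockouts, or 5.71 and 9.96 against 3.17 and 2.55 CPM. The groups did not overlap, and the change was -1.46 ± 0.27 (adjusted p = 0.000795).

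Sesn2, which senses leucine and restrains mTORC1 and is also a p53 target, went the other way. It was at 3.56 and 4.77 CPM in the controls versus 7.49 and 9.02 CPM in the knockouts, a change of 0.95 ± 0.22 (adjusted p = 0.00731). The ratios were alike in the 2 mice, at 1.07 and 0.92 on the log2 scale. Ddit4 (REDD1), another mTORC1 inhibitor, was at 57.3 and 66.3 CPM against 45.2 and 44.7 CPM and fell by 0.50 ± 0.09 on the log2 scale (adjusted p = 0.000975). The lipoprotein receptor gene Vldlr was at 12.7 CPM in both controls and at 8.80 and 7.30 CPM in the knockouts. Its groups did not overlap either (-0.70 ± 0.17, adjusted p = 0.00979).

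All 3 asparagine and proline synthesis genes fell. Asns (chr6:7675169-7693254), which makes asparagine from aspartate and glutamine, was at 185 and 284 CPM in controls versus 170 and 154 CPM in knockouts. The drop was small in mouse 1, at a log2 ratio of -0.12, and larger in mouse 2, at -0.88, with a fitted change of -0.54 ± 0.11 (adjusted p = 0.00139). Aldh18a1, the enzyme that commits glutamate to proline, was at 91.0 and 86.1 CPM against 77.9 and 54.7 CPM (-0.47 ± 0.09, adjusted p = 0.00183). Pycr1, which completes proline synthesis in mitochondria, was at 6.74 and 5.78 CPM against 4.40 and 2.75 CPM (-0.85 ± 0.25, adjusted p = 0.0321). For Aldh18a1 and Pycr1, control 1 and not control 2 was the highest library.

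The serine pathway runs from Phgdh through Psat1 to Psph, and Shmt2 and Mthfd2 pass serine carbon into mitochondrial folate. Phgdh, its entry enzyme, was at 292 and 482 CPM in controls versus 324 and 333 CPM in knockouts. Its mice moved in opposite directions and it did not pass (-0.24 ± 0.10, adjusted p = 0.139). Psat1 was at 121 and 144 CPM against 107 and 94.3 CPM, so that its groups did not overlap (-0.44 ± 0.09, adjusted p = 0.00216). Psph was at 99.7 and 203 CPM against 92.4 and 99.6 CPM (-0.62 ± 0.12, adjusted p = 0.0015). For Psph the other 3 libraries lay together and control 2 alone was high. Shmt2 was at 121 and 172 CPM against 120 and 107 CPM (-0.39 ± 0.10, adjusted p = 0.0179). Mthfd2 was at 105 and 164 CPM against 98.7 and 91.3 CPM (-0.51 ± 0.11, adjusted p = 0.00321). Both one-carbon genes were near level in mouse 1, at log2 ratios of -0.01 and -0.09.

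Transporters split. Slc3a2, the heavy chain shared by several amino acid exchangers, was at 115 and 162 CPM against 108 and 114 CPM (-0.34 ± 0.09, adjusted p = 0.0154). Its partner Slc7a5 (LAT1), which imports leucine and other large neutral amino acids, was at 42.7 and 44.9 CPM against 37.1 and 35.0 CPM (-0.32 ± 0.10, adjusted p = 0.0415). The arginine and lysine importer Slc7a1 was at 68.5 and 65.3 CPM against 67.0 and 58.7 CPM and did not pass. Slc7a11 (xCT, chr3:49892526-50443614), which imports cystine for glutathione, separated the mice instead of the groups. It was at 21.7 CPM in control 1 and 20.6 CPM in knockout 1, and at 52.1 CPM in control 2 and 69.7 CPM in knockout 2. The knockout change was 0.17 ± 0.11 (adjusted p = 0.418).

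The tRNA synthetases join each amino acid to its tRNA. Of the 10 cytosolic members, Nars and Sars fell and Wars rose. Nars was at 270 and 345 CPM in the controls versus 244 and 250 CPM in the knockouts (-0.35 ± 0.07, adjusted p = 0.00321). Sars was at 158 and 233 CPM against 156 and 159 CPM (-0.33 ± 0.09, adjusted p = 0.0232), so only control 2 stood above the rest. Wars, which interferon-gamma also induces, was at 68.6 and 60.5 CPM against 83.5 and 84.1 CPM, with no overlap (0.33 ± 0.09, adjusted p = 0.0179). The other 7, Aars, Gars, Tars, Yars, Mars, Eprs and Lars, did not pass. Their log2 fold changes ran from -0.33 for Yars to 0.02 for Eprs.

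Atf5, Ddit3, Mars, Shmt2, Slc7a5, Wars and Yars overlap a protein-coding gene on the opposite strand, and Aars and Ddit3 overlap one on their own strand, in the GENCODE M21 annotation of GRCm38. For Ddit3 that is another gene model of the same name, over 2925 bases, and Ddit3 and Mars share 68 bases with each other. How the counting treated such reads is not given in the sources used here.

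**Figure D2:**
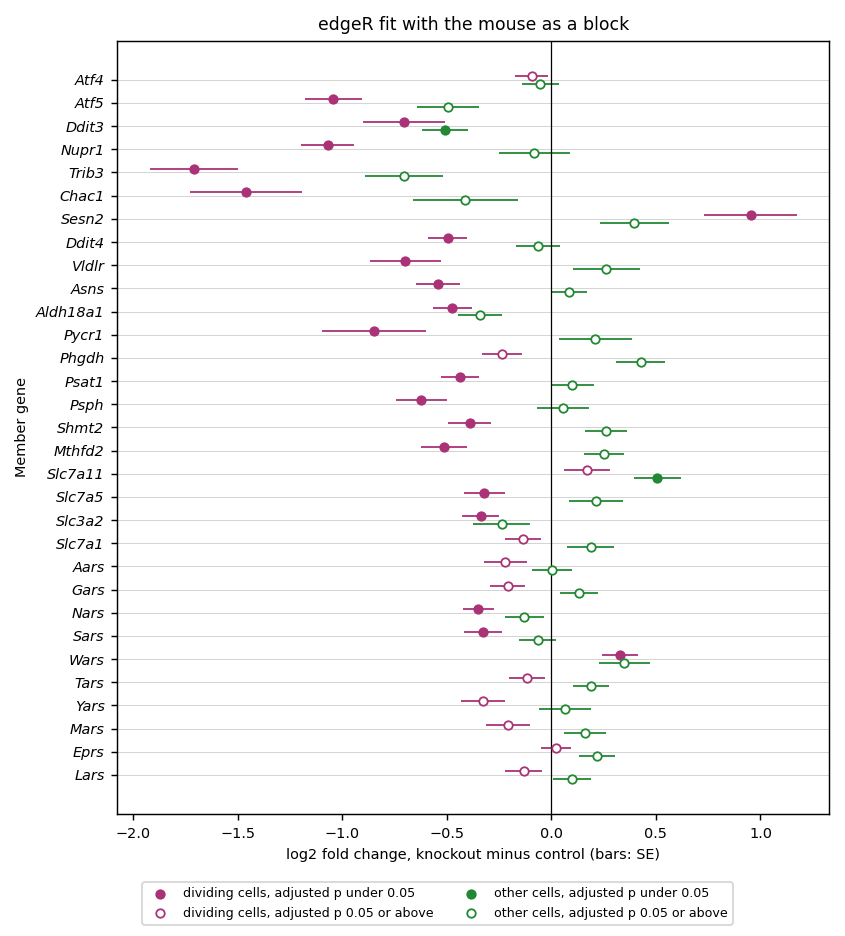
Log2 fold change of each member, knockout minus control, from the edgeR fit with the mouse as a block, with bars for the standard error. Purple points are dividing cells and green points other cells, filled where the adjusted p is under 0.05. In dividing cells 27 of 31 points lie below 0, and in other cells 11 of 31.

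In the other cells 1 member fell, Ddit3, and 1 rose, Slc7a11. Over the 12687 genes tested there, 6.61% were called lower and 3.99% higher, so the members' share was not above that of all genes. Ddit3 was at 30.6 and 42.4 CPM in the controls versus 23.3 and 29.3 CPM in the knockouts, lower in both mice (-0.51 ± 0.11, adjusted p = 0.0393). Slc7a11 was at 12.3 and 31.3 CPM in controls 1 and 2 and at 19.0 and 44.1 CPM in knockouts 1 and 2. It was higher in each knockout than in the control of the same mouse (0.51 ± 0.11, adjusted p = 0.0414), while the groups overlapped. Without the block, edgeR called 0 members and 0 had an unadjusted p under 0.05, against 811 of 12687 genes. DESeq2 called 0 members with or without the block.

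Asns, Psat1, Trib3, Chac1 and Nars, which fell in dividing cells, had smaller or positive changes here. Asns was at 129 and 124 CPM in the controls versus 145 and 132 CPM in the knockouts (0.08 ± 0.09, adjusted p = 0.567). Psat1 was at 54.1 and 46.0 against 63.9 and 47.6 CPM (0.10 ± 0.11, adjusted p = 0.568). Phgdh, which had not passed in dividing cells, was at 141 and 149 against 221 and 183 CPM (0.43 ± 0.12, adjusted p = 0.0663). Phgdh was thus higher in both knockouts than in either control but missed the threshold. Trib3 was at 10.5 and 15.7 against 8.17 and 8.20 CPM (-0.71 ± 0.19, adjusted p = 0.0625). Chac1 was at 4.30 and 6.14 against 2.56 and 5.85 CPM (-0.41 ± 0.25, adjusted p = 0.325). Atf4, which passed in neither, was at 226 and 212 against 223 and 213 CPM (-0.05 ± 0.09, adjusted p = 0.737). Nars was at 216 and 221 against 212 and 200 CPM (-0.13 ± 0.09, adjusted p = 0.398). The members' median in other cells was 0.10, against -0.0093 over all genes.

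The difference between dividing and other cells was tested as an interaction, with each library as a block. The fit had no term for a class difference that varies with the mouse, so this contrast was not paired by mouse. Its calls are therefore not directly comparable with those of the block fits within each class. No member passed: the smallest adjusted p was 0.919, and 0 of 12773 genes passed. The change was more negative in dividing cells for 29 of 31 members, with a median difference of -0.35 on the log2 scale against 0.02 over all genes. At an unadjusted p under 0.05 there were 8 members, all lower in dividing cells: Trib3, Vldlr, Asns, Pycr1, Phgdh, Psat1, Psph and Mthfd2. Of all genes, 4.88% had such a p. DESeq2 also called 0 members. The number of members past the threshold also depended on which library was left out.

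Summed over all cells, 5 members fell and 2 rose, where 8.77% of 13243 genes were called lower and 4.88% higher. The fall was in Atf5 (-0.71 ± 0.16, adjusted p = 0.0332), Ddit3 (-0.66 ± 0.11, adjusted p = 0.0165), Trib3 (-1.07 ± 0.20, adjusted p = 0.0214), Chac1 (-0.78 ± 0.18, adjusted p = 0.0358) and Aldh18a1 (-0.36 ± 0.09, adjusted p = 0.0477). Sesn2 (0.54 ± 0.14, adjusted p = 0.0484) and Slc7a11 (0.39 ± 0.10, adjusted p = 0.0473) rose. Such sums cannot tell a change within cells from a change in the mix of cell types. Enterocyte-like cells made up 13.7% and 33.1% of cells in the controls versus 6.45% and 11.9% in the knockouts. Without the block, edgeR called 0 members in all cells, and 2, Atf5 and Trib3, had an unadjusted p under 0.05. Of all genes, 1138 of 13243 had such a p.

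Stem-like cells, of which there were 163 and 45 in controls 1 and 2 and 325 and 212 in knockouts 1 and 2, had lower member levels in the knockouts mainly in mouse 2. The members' median log2 ratio of knockout to control was -0.02 in mouse 1 and -0.60 in mouse 2. With the block, 9 members fell and 0 rose, with 1.76% of 10192 genes called lower and 1.10% higher. They were Atf5, Chac1, Ddit4, Asns, Aldh18a1, Psat1, Psph, Nars and Sars, and all 9 had also fallen in dividing cells. Atf5 was at 72.0 and 153 CPM in controls versus 44.0 and 38.6 CPM in knockouts (-1.34 ± 0.19, adjusted p = 0.00111). Asns was at 173 and 325 CPM against 169 and 145 CPM (-0.63 ± 0.16, adjusted p = 0.045). Control 2, with its 45 stem-like cells, was again the highest library for 25 of 31 members, against 23.0% of all genes. Without the block 0 members passed, and 12 had an unadjusted p under 0.05, against 826 of 10192 genes. The members' median log2 fold change in that fit was -0.31. Leaving out control 2 from that fit brought the median to -0.05, and leaving out control 1 gave -0.59.

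Goblet-like cells showed higher values for the serine genes. There 8 members rose and 1 fell, with 8.33% of 10264 genes called higher and 6.93% lower. All 3 serine synthesis genes and both one-carbon genes rose, with Gars, Mars and Slc7a11, and Nupr1 fell. Phgdh was at 111 and 120 CPM in the controls versus 168 and 194 CPM in the knockouts (0.57 ± 0.11, adjusted p = 4.18e-06), with no overlap. Psat1 was at 52.0 and 40.4 against 62.8 and 63.2 CPM (0.38 ± 0.13, adjusted p = 0.0339). Psph was at 49.8 and 37.2 against 55.8 and 71.1 CPM (0.47 ± 0.13, adjusted p = 0.00703). Mthfd2, Psat1, Psph and Shmt2 had thus fallen in dividing cells and risen in goblet-like cells. Nupr1 was at 176 CPM in control 1 against 85.6 CPM in knockout 1, and at 448 CPM in control 2 against 236 CPM in knockout 2. Within each mouse it was lower in the knockout, by log2 ratios of -1.04 and -0.92 (fitted change -1.04 ± 0.10, adjusted p = 2.23e-20).

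The goblet-like class joins clusters 3 and 5. Cluster 3 was led by Gfi1, Atoh1, Id4 and Spdef, and cluster 5 by Zg16, Clca1, Tff1 and Ccl9. Most goblet-like cells lay in cluster 5 in both controls (101 of 186 and 65 of 98). In both knockouts most lay in cluster 3 (92 of 151 and 170 of 295). Sums over the class cannot tell a change within cells from a change in this mix. Within cluster 3, Phgdh was still higher (0.39 ± 0.11, adjusted p = 0.0207) and Psat1 was level (0.04 ± 0.15, adjusted p = 0.914). Within cluster 5, Phgdh gave 0.35 ± 0.17 (adjusted p = 0.449) and Psat1 0.89 ± 0.27 (adjusted p = 0.136). Nupr1 gave -1.89 ± 0.15 in cluster 3 (adjusted p = 3.69e-16) and -0.25 ± 0.15 in cluster 5 (adjusted p = 0.542). Without the block 0 members passed in goblet-like cells, and 5 of 31 had an unadjusted p under 0.05. Of all genes, 1370 of 10264 had such a p.

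The change in dividing cells was also set against that in goblet-like cells in an interaction fit, a test added after the data were seen. This contrast was not paired by mouse either. No member passed, although 0.312% of 11218 genes were called lower and 0.0357% higher. The smallest adjusted p was 0.0668, for Phgdh, whose difference was -0.83 ± 0.17 on the log2 scale. There were 16 members at an unadjusted p under 0.05, all lower in dividing cells, against 9.38% of all genes.

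In enterocyte-like cells 0 of 27 members tested were called, with 0.307% of 9109 genes lower and 0.692% higher. In Paneth-like cells 0 of 28 were called, with 0.0150% of 6648 genes lower and 0.0150% higher. At an unadjusted p under 0.05 in these block fits there were 2 members in each class. Among all genes, 848 of 9109 in enterocyte-like and 641 of 6648 in Paneth-like cells had such a p. The Paneth-like class held 31 to 122 cells per library.

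**Figure D3:**
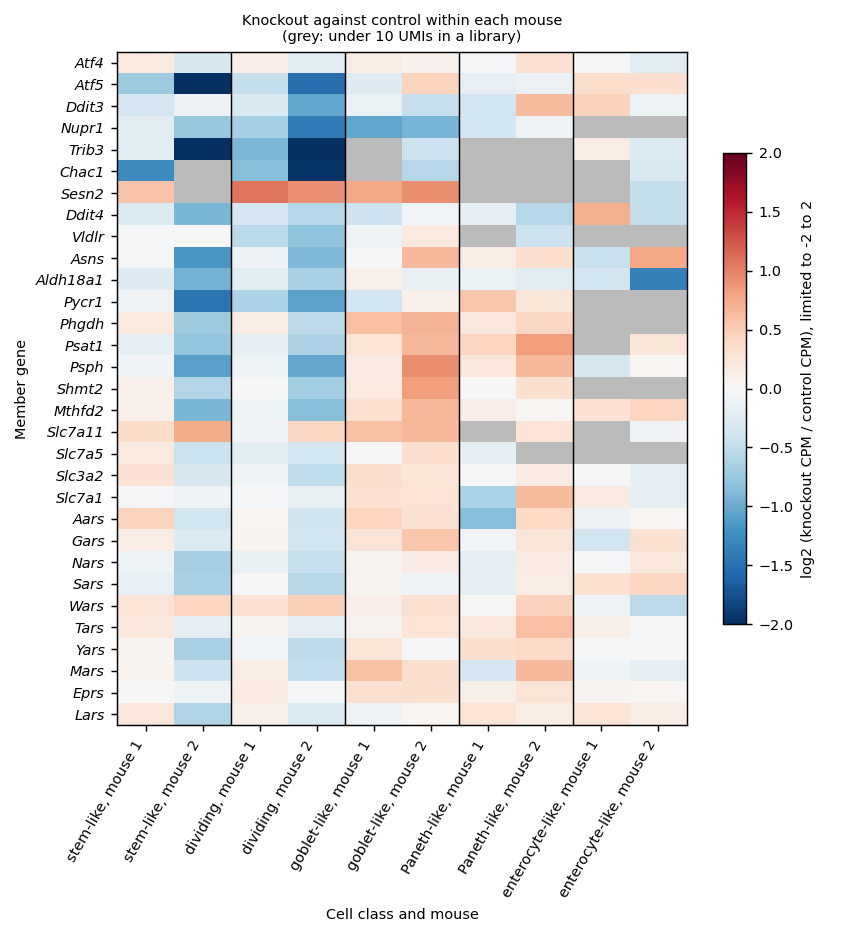
Log2 ratio of knockout to control CPM within each mouse, for each member (rows) and cell class (columns), with red higher in the knockout and blue lower. The scale stops at -2 and 2, and grey marks fewer than 10 UMIs in a library. The blue columns are stem-like and dividing cells of mouse 2, where the dividing-cell median is -0.53, and the goblet-like serine genes are red in both mice.

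The mice also differed in the block fit, whose mouse term averages over controls and knockouts. In dividing cells, 10 members were higher in mouse 2 than in mouse 1 and 0 lower by the same edgeR fit, against 6.59% of all genes higher and 5.04% lower. Slc7a11 differed most, at 1.60 ± 0.11 on the log2 scale (adjusted p = 2.61e-10). Trib3 was higher by 1.00 ± 0.21 (adjusted p = 0.00214) and Psph by 0.63 ± 0.12 (adjusted p = 0.000955). The others were Atf5, Phgdh, Slc3a2, Gars, Nars, Sars and Lars. Slc7a11 was higher in mouse 2 in both groups. Trib3, Psph, Phgdh, Nars and Sars were near level between the knockouts, and Atf5 was lower in knockout 2. For these genes the difference lay mainly in the high level of control 2. With 1 control from each mouse, a difference between animals cannot be told apart from one between cultures or library preparations.

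Genes around the members were counted in lists grouped by role, which were written with earlier results of these data known. Their counts stand beside the shares of all genes called as a description, and no independent test was made. Those shares were 4.64% lower and 3.61% higher in dividing cells, and 8.77% lower and 4.88% higher in all cells. Of 9 sensor kinase and eIF2 genes, 0 were called in dividing cells, and 1 rose and 1 fell in all cells, near those shares. There Eif2s1, which encodes the phosphorylated eIF2 subunit, was higher (0.33 ± 0.09, adjusted p = 0.0499), and Ppp1r15a (GADD34), the stress-induced eIF2 phosphatase subunit, was lower (-0.41 ± 0.10, adjusted p = 0.0484). The GCN2 gene Eif2ak4 was at 8.52 and 8.66 CPM in control and 9.34 and 9.85 CPM in knockout dividing cells and did not pass.

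Other ATF4 partners and targets split in both directions. In dividing cells 8 of 20 tested fell and 2 rose, against 4.64% and 3.61% of all genes. In all cells 6 of 21 fell and 2 rose, against 8.77% and 4.88%. The 3 with the largest changes in all cells were Ddit4l, Fgf15 and Jdp2. Ddit4l, a relative of Ddit4, was at 0.441 and 0.548 CPM in the controls versus 3.57 and 4.95 CPM in the knockouts (3.05 ± 0.29, adjusted p = 0.00234). The enterocyte hormone gene Fgf15 was at 1.73 and 17.7 against 0.216 and 4.08 CPM (-2.31 ± 0.23, adjusted p = 0.00304). Enterocyte-like cells were also a smaller share of each knockout than of its own control. The all-cell sum of Fgf15 cannot tell that mix from a change within cells. In dividing cells Fgf15 was too low to be tested, at 0.0772 to 2.02 CPM. Jdp2, an AP-1 family repressor, was at 2.28 and 4.43 against 1.19 and 1.85 CPM (-1.15 ± 0.26, adjusted p = 0.0337).

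Of 11 other amino acid transporters, 5 fell and 2 rose in all cells, and 4 fell and 2 rose in dividing cells. The largest changes in all cells were in the cationic transporter Slc7a3 (-2.28 ± 0.30, adjusted p = 0.0066), the light chain Slc7a8 (-1.62 ± 0.23, adjusted p = 0.00842) and the cystine transporter subunit Slc7a9 (-1.46 ± 0.11, adjusted p = 0.00131). Within dividing cells, Slc7a3 (-2.41 ± 0.32, adjusted p = 1.8e-05) and Slc7a9 (-1.33 ± 0.36, adjusted p = 0.0222) fell too, and Slc7a8 did not pass (-0.81 ± 0.30, adjusted p = 0.099). Levels there were low. Slc7a3 was at 3.56 and 8.66 CPM in controls 1 and 2 versus 0.695 and 1.65 CPM in knockouts 1 and 2. Slc7a9 was at 2.81 and 3.90 versus 0.927 and 1.86 CPM, compared with 14.1 to 96.3 CPM in other cells. Of 9 tested other serine, glycine and folate enzymes, 3 rose and 1 fell in all cells. Tyms (0.46 ± 0.08, adjusted p = 0.0167) and Mthfd1 (0.45 ± 0.08, adjusted p = 0.0213), which serve nucleotide synthesis, rose, and Aldh1l1 fell (-0.75 ± 0.11, adjusted p = 0.00958). In dividing cells only 1 of these 9 was called, lower.

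Of 13 other cytosolic synthetases and their complex proteins, 3 rose in all cells, Eef1e1, Farsa and Aimp2, and 1 fell in dividing cells. Of 17 mitochondrial synthetases, 0 were called in all cells and 1 fell in dividing cells. S phase genes, counted because they mark cells copying DNA, rose in 14 of 15 cases in all cells and in other cells, and in 2 of 15 in dividing cells. Their part in the members' values was not tested.

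Levels of the members also differed by cell class. Members were left out of the clustering but follow the genes that were used, so these levels are a description with no test. In each of the 4 libraries, 18 members were higher in dividing than in other cells and 5 were lower. Phgdh was 1.47 to 3.22 times as high in dividing cells, Psat1 1.68 to 3.13 times and Shmt2 1.38 to 3.47 times. The median ratio over all genes was 0.950 to 0.972. For these genes control 2 gave the highest ratio. The 5 lower in dividing cells were Ddit3, Nupr1, Sesn2, Pycr1 and Wars. Nupr1 was at 0.0731 to 0.242 times and Ddit3 at 0.214 to 0.324 times its level in other cells.

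Enterocyte-like cells had little serine synthesis mRNA. Phgdh was at 1.40 to 5.06 CPM across their 4 libraries, on 3 to 13 UMIs each, compared with 292 to 482 CPM in dividing and 278 to 541 CPM in stem-like cells. Ddit3 ranked the other way: 73.3 to 117 CPM in enterocyte-like cells, 17.9 to 42.9 CPM in Paneth-like, 19.3 to 29.4 CPM in goblet-like, and 6.27 to 12.9 CPM in dividing cells. The ranges of goblet-like and Paneth-like cells overlap, so those neighbours do not differ beyond their spread. Slc3a2 was also highest in enterocyte-like cells, at 218 to 314 CPM against 108 to 162 CPM in dividing cells.

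Paneth-like cells stood out in Nupr1, at 760 to 1099 CPM, against 85.6 to 448 CPM in goblet-like and 19.97 to 52.7 CPM in dividing cells. Pycr1 was at 46.4 to 79.1 CPM in Paneth-like, 17.4 to 24.3 CPM in goblet-like and 2.75 to 6.74 CPM in dividing cells. Wars was at 151 to 186 CPM in goblet-like and 104 to 144 CPM in Paneth-like cells, ranges that do not overlap, and at 60.5 to 84.1 CPM in dividing cells. Atf4 was at 147 to 182 CPM in stem-like, 189 to 221 CPM in dividing and 227 to 266 CPM in goblet-like cells.

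**Figure D4:**
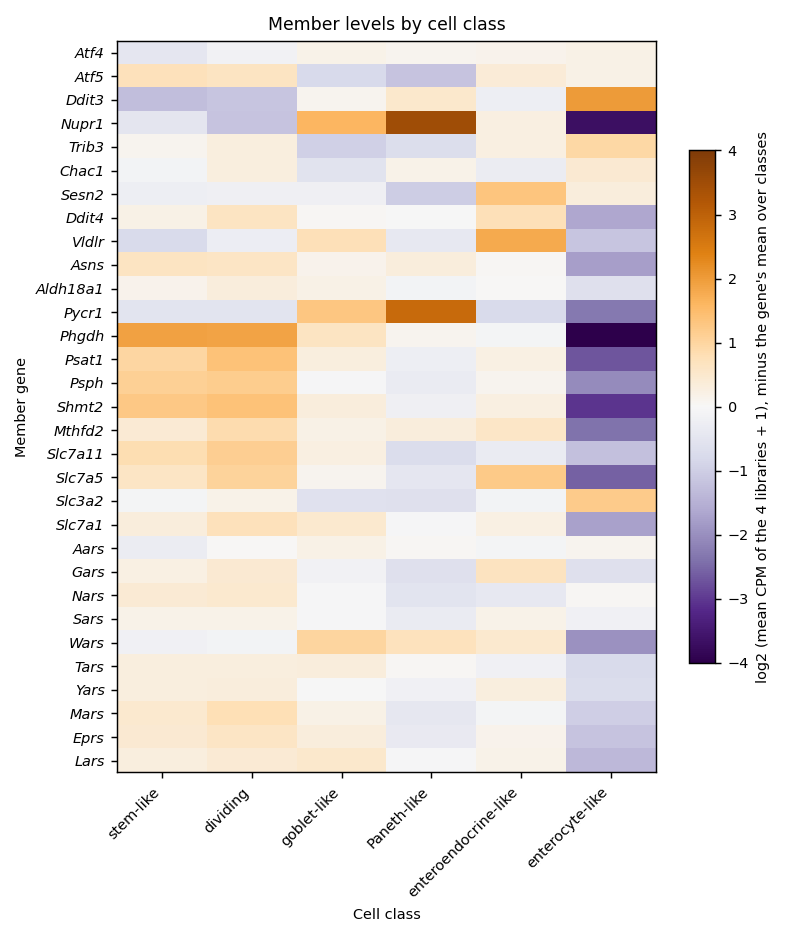
Level of each member by cell class, as log2 of the mean CPM of the 4 libraries plus 1, minus the gene's mean over the 6 classes, with orange above and purple below. Phgdh, Psat1 and Shmt2 are purple in enterocyte-like cells, and Nupr1 and Pycr1 are orange in Paneth-like cells.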

How the data were processed

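For each library the authors deposited a matrix of whole-number UMI counts per gene and barcode. Counts came from Cell Ranger 3.0.1 on mm10, per the submitters' processing notes, and the file headers name software 3.0.0. Library totals were 22139560 to 35592468 UMIs. The deposited feature and barcode files hold identifiers only.

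Barcodes with under 500 genes (173 of 5602) were removed. Scrublet's automatic threshold marked 0.387% of barcodes, so the highest doublet scores were removed at 0.8% per 1000 barcodes (70 barcodes). Cells were clustered with scanpy 1.11.5 (2000 variable genes, 30 components, 15 neighbours, Leiden resolution 1), giving 17 clusters. Clusters were named from marker lists, with naming limits set after the data were seen (score of at least 0.5, 3 detected markers); 6 stayed unnamed.

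UMI counts were summed per library and class and tested with edgeR 4.0.16 (TMM, filterByExpr, quasi-likelihood, Benjamini-Hochberg over all genes tested). The planned fit had group only; the block fit is read as primary because the design names 2 mice and the files carry the same mouse tag for same-numbered libraries. Same-numbered libraries deviated together across genes (r = 0.66 in all, 0.49 in dividing and 0.67 in other cells). The correlation was 0.49 in enterocyte-like cells and lower in goblet-like (0.43), stem-like (0.33) and Paneth-like cells (0.21). The block leaves 1 residual degree of freedom and group only 2, so p-values rest on spread shared across genes. The edgeR standard errors were calculated back as the absolute log2 fold change divided by the square root of the test's F statistic. They rest on that shared spread too and do not measure 1 gene's spread between libraries. DESeq2 1.42.0 was an alternative. The fits were tested on simulated data: in dividing cells the block fit recovered 67 of 100 genes changed 1.5-fold and 87 changed 2-fold, with 11 false calls. The simulated libraries of a mouse shared the same means apart from the planted changes, a setting that favours the block fit. CPM values are per library without TMM, and with 2 libraries per group each value is given.

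All members are named, with full values for those past the threshold in all, dividing or other cells and for Atf4, Asns, Psat1, Phgdh, Ddit3, Chac1, Trib3, Slc7a11 and Nars. Pathway genes are given as counts, naming at most 3 per list. Genes named in other classes were chosen after their values were seen. The members and lists were chosen with earlier results of these data known. Replicates come from separate mice, 1 per number.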

Additional observations from a re-analysis of the deposited data

How the results depend on the processing

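The counts below are of members past an adjusted p of 0.05. Where no share of all genes called is given for a fit, its count does not show whether the members differ from other genes. Same-numbered libraries share a mouse, and adding the replicate block to edgeR raised the count from 0 to 7 in all cells, to 20 in dividing, to 2 in other, to 9 in stem-like and to 9 in goblet-like cells; in enterocyte-like and Paneth-like cells it stayed 0. With the block, omitting the low-count filter gave 8, 22 and 5 members in all, dividing and other cells, and omitting TMM gave 8, 19 and 3. DESeq2 with the block gave 3, 2 and 0, and DESeq2 with group only gave 0, 3 and 0. Without the block or the filter, edgeR called 8 in dividing cells and 0 in all and in other cells. Keeping doublets gave 5 in all cells with the block. Taking dividing cells from their share of mitosis-marker UMIs gave 3180 of 5359 cells, with 241 cells near the cut on either side. With that split there were 2 members in dividing (1 higher, 1 lower) and 2 in other cells (both higher). Leaving unnamed clusters out of other cells gave 5. Alternatives chosen after the data were seen, all with the block, gave 15 members in dividing cells of 20000 to 60000 UMIs, 15 within cluster 1, 4 within cluster 4, 24 within cluster 7, 3 within goblet-like cluster 3 and 0 within goblet-like cluster 5. Leaving out 1 library at a time without the block gave 0 to 7 members in dividing cells (7 without control 1), 0 to 13 in stem-like (13 without control 1, 2 without control 2) and 0 to 1 in goblet-like cells (1 without control 1 or knockout 2), and 0 in the remaining classes. It gave 0 to 10 in the interaction of dividing and other cells, which was 0 without the filter, without TMM and with DESeq2. The longer motif was found in 4 members. Where an arm was left with 1 library, that library is assumed to vary like the other group. The cause of these shifts was not tested.

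Some log2 fold changes changed sign. In dividing cells Atf4 was 0.0488 at 20000 to 60000 UMIs, 0.159 in cluster 1 and 0.0443 in cluster 4, Ddit3 was 0.0426 and Slc7a11 -0.115 in cluster 1, and Slc7a5 was 0.0357 in cluster 4. Chac1 was 0.245 in other cells by the share of mitosis-marker UMIs.
With 1 library left out and no block, the log2 fold changes that crossed 0 ran from -0.0517 to 0.364 for Phgdh in all cells, -0.22 to 0.0079 for Psat1 in all cells, -0.55 to 1.24 for Slc7a11 in all cells, -0.224 to 0.0365 for Atf4 in dividing cells, -0.629 to 0.162 for Phgdh in dividing cells, -0.912 to 1.07 for Slc7a11 in dividing cells, -1.11 to 0.152 for Chac1 in other cells, -0.0746 to 0.271 for Psat1 in other cells and -0.305 to 1.38 for Slc7a11 in other cells.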

Other observations

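Enteroendocrine-like cells, of which there were 11 in control 2 and 54 to 83 in each other library, carried the highest levels of Vldlr among the classes described. Vldlr was at 33.5 to 53.0 CPM there, at 20.5 to 23.4 CPM in goblet-like cells and at 7.30 to 12.7 CPM in dividing cells, ranges that do not overlap. Several members stood apart in the enteroendocrine-like cells of control 2, which gave 328868 UMIs in all. Atf5 was at 155 CPM there and at 15.6 to 47.7 CPM in the other 3 libraries, and Psat1 was at 131 CPM against 16.6 to 34.9 CPM. Phgdh was at 158 CPM against 42.1 to 92.5 CPM. No test was run in this class.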
